A study of Mus musculus with 6 samples.

Results

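The genes described here belong to the pathway of phosphoinositide 3-kinase (PI3K), the kinase AKT and the FOXO transcription factors in the mouse line C2AS12, whose cells are myoblasts that come from C2 cells. They were chosen by symbol: all probe sets that the array's annotation gives to a single one of Pik3ca, Pik3r1, Akt1, Akt2, Foxo1, Foxo3, Irs1 and Gsk3b. Of these 8 genes, 6 had a probe set and 7 probe sets stood for them, out of 12422 probe sets in all. Foxo1 and Gsk3b had no probe set under this rule and are not analysed here. Pik3ca had a pair of probe sets and each other gene had 1.

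The cells of every array had been infected with recombinant adenovirus that encodes p300, an enzyme that acetylates histones and helps transcription factors act. They carried wild-type p300 with doxycycline, mutant p300, or wild-type p300 without doxycycline. Each was sampled after 24 h in low-serum differentiation medium and at 0 h, before that medium was added, which makes 6 arrays, 1 per treatment and time. By the submitters' account, cells died by apoptosis with doxycycline and with mutant p300 and survived with wild-type p300. Which mutation was used, and how doxycycline acts here, is not in the labels. No array is of uninfected cells or of cells kept for 24 h without the medium change, and the labels name no separate cultures, so the p-values rest on the spread among these 6 samples, which may be technical.

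PI3K is made of a catalytic subunit, such as the p110 alpha protein of Pik3ca, and a regulatory subunit, such as the p85 alpha protein of Pik3r1, which holds it at activated receptors or at adaptors such as IRS1. The lipid it makes draws AKT1 and AKT2 to the membrane, where they are activated. Active AKT phosphorylates GSK3 and the FOXO factors, which leave the nucleus, so that genes of cell cycle arrest and death that FOXO factors switch on stay quiet. Much of this control acts on proteins, and an array reads only the RNA. In myoblasts the pathway is known to carry survival and differentiation signals of insulin-like growth factors.

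The promoter windows of RefSeq (GRCm38.p6) are shown for the 3 genes whose 24 h arrays all lay above the 0 h arrays on a tested probe set. Of Akt1, the window that holds the FOXO binding element is shown. Each window runs from 250 bases before a transcript start to 50 after it and is printed 5′ to 3′ on the gene's strand. Capitals mark CG dinucleotides in the first 3 windows and the element in the last.
Pik3ca, chr3:32396815-32397114, plus strand: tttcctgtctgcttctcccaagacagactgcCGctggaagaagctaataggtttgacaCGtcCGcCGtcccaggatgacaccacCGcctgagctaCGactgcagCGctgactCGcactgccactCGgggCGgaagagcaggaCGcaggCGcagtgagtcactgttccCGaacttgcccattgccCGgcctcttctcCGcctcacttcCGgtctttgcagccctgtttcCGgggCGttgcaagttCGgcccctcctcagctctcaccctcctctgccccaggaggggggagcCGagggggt
Pik3r1, chr13:101768168-101768467, minus strand: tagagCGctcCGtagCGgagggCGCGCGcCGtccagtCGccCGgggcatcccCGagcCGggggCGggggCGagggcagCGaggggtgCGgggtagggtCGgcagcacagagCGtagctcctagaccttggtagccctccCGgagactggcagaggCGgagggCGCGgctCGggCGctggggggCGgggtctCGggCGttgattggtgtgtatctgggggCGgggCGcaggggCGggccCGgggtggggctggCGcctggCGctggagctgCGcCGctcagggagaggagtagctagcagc
Foxo3, chr10:42276646-42276945, minus strand: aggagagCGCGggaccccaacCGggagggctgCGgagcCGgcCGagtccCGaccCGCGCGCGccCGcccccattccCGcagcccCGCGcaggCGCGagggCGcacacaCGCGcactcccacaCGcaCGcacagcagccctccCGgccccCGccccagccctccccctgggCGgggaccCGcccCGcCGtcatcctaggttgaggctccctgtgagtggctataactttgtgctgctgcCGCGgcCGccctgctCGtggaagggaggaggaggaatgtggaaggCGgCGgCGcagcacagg
Akt1, chr12:112674835-112675134, minus strand: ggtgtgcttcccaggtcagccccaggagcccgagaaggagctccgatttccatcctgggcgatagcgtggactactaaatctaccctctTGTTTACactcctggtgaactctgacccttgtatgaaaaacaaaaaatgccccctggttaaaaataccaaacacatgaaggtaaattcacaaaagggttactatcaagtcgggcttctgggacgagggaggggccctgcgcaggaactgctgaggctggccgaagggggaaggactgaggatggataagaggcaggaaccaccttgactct
All 6 genes with a probe set matched the table by symbol, with 11 windows between them. The motif searched was GTAAACA on both strands, and it was found in 1 of these 11 windows, that shown for Akt1. There it lay in the opposite orientation (TGTTTAC), starting 161 bases before the transcript start of that window. Of all 32851 windows of the same length, 3.65% held it. The Pik3ca window held 20 CG dinucleotides, the Pik3r1 window shown 34 and the Foxo3 window 35, against a median of 7 over all windows. Pik3r1 has another window, chr13:101692581-101692880, not shown, which held 6. The Akt1 window shown held 8, and its other window, chr12:112674227-112674526, held 42 and no FOXO element. The Irs1 window held 28 and the Akt2 windows 0 to 12, so a high count was not particular to the 3 genes. Of all windows, 73.5% held fewer than that of Pik3ca. A match is only a description of the letters in the window.

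The array signals are linear intensities. The arrays agreed in trimmed mean signal at 199.3 to 199.96, and their median signal lay between 68.7 and 78.05. Values under a floor of 16.4 were set to it before log2 was taken, and the 6212 probe sets whose mean signal over the 6 arrays reached 75.2 were tested. Of the 7 member probe sets, 6 were tested and that of Irs1 was not. Markers of muscle cells were present, with 7 of 7 measured genes above the filter and a summed signal of 3502 to 4259 at 24 h and 2464 to 2797 at 0 h. Of 7 macrophage and leukocyte markers, 2 passed the filter, with a summed signal of 540.9 to 642.9 at 24 h and 650.4 to 740.3 at 0 h. Cd14 read 322.4 to 416.6, one Cd68 probe set read 103.9 to 173, and both Csf1r probe sets were above the floor on all arrays, while Ptprc, Itgam, Adgre1 and Lyz2 read under it on all arrays. The part of this signal in the changes with time was not tested.

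**Figure D1:**
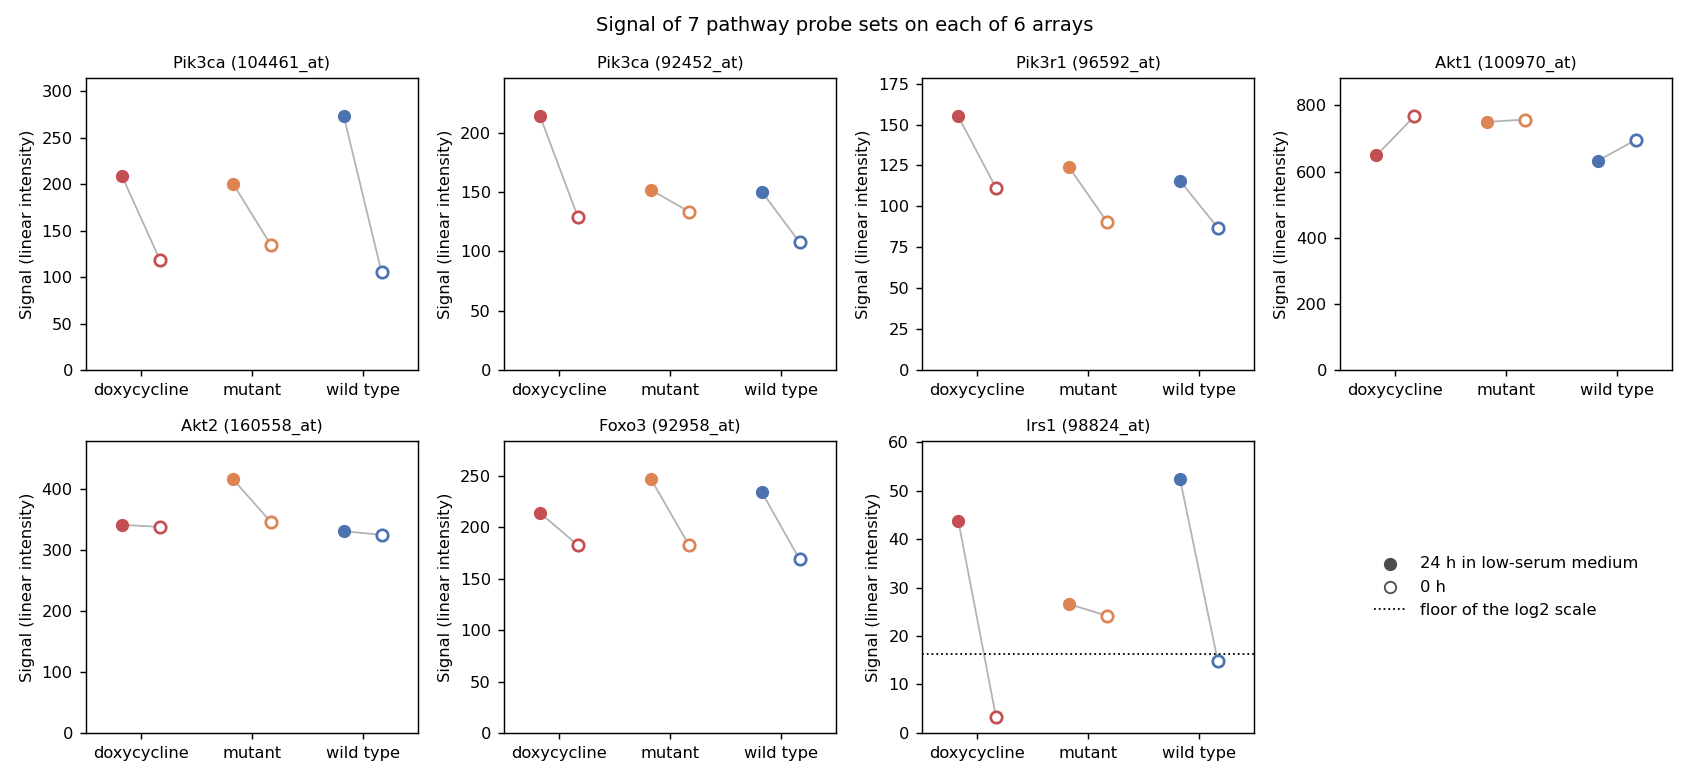
Signal (linear intensity) of the 7 probe sets, 1 panel each, with filled points for 24 h and open points for 0 h, in cells with doxycycline, with mutant p300 and with wild-type p300. Both Pik3ca panels and those of Pik3r1 and Foxo3 have every 24 h point above every 0 h point, while Akt1 and Akt2 overlap; the dotted line in the Irs1 panel is the floor of 16.4.

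The comparison of 24 h with 0 h asked how RNA of the pathway changed in low-serum medium across the 3 treatments. By limma with treatment as a block, 1 of 6 tested member probe sets rose and 0 fell, against 7.24% of all tested probe sets that rose and 9% that fell (16.2% either way). That probe set belonged to Pik3ca. At an unadjusted p under 0.05 there were 4 of 6, against 31.5% of all tested. With scaling to the spike-in controls that count was 1 of 6, against 1317 of all 6212 tested. Without the arrays of any 1 treatment it was 2 of 6, against 1438 to 1952 of 6212. On 4 of 6 probe sets the 24 h arrays all lay above the 0 h arrays, against 12.7% of all tested. The median change of the 6 was 0.41 on the log2 scale, against 0.0049 over all tested. Both counts of 4 include both Pik3ca probe sets, so that gene enters the counts and the median more than once.

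Pik3ca, the catalytic subunit, read 208.6 with doxycycline, 200.8 with mutant p300 and 273 with wild-type p300 at 24 h on probe set 104461_at. At 0 h it read 119, 135.1 and 105.5 in the same order. The groups did not overlap, and the wild-type array was the highest at 24 h and the lowest at 0 h. The mean log2 change was 0.92 ± 0.41 (SD, n = 3 treatments), a 1.89-fold rise (limma adjusted p = 0.00939). By treatment, the change was 0.81 with doxycycline, 0.57 with mutant p300 and 1.37 with wild-type p300. Without the filter on dim probe sets the call was lost (limma adjusted p = 0.231), as were all calls of this comparison.

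The other Pik3ca probe set, 92452_at, gave a smaller change. It read 213.5 with doxycycline, 151.7 with mutant p300 and 150.1 with wild-type p300 at 24 h, and 128.9, 133.5 and 107.5 at 0 h. Here too the groups did not overlap, but the doxycycline array was the highest at 24 h. The mean log2 change was 0.46 ± 0.27 (SD, n = 3) and was not called (limma adjusted p = 0.0839). Both probe sets were higher at 24 h in 3 of 3 treatments, and they ordered the treatments differently.

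Pik3r1, the main regulatory subunit of PI3K, read 154.9 with doxycycline, 123.8 with mutant p300 and 115.6 with wild-type p300 at 24 h. At 0 h it read 111.3, 90.7 and 87. The groups did not overlap, and the doxycycline array was the highest at both times. The log2 change lay close together in the 3 treatments, at 0.48 with doxycycline, 0.45 with mutant p300 and 0.41 with wild-type p300 (mean 0.45 ± 0.034, SD, n = 3). It was not called with the variance trend (limma adjusted p = 0.0966) and was called without it (adjusted p = 0.0486).

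Foxo3, a FOXO factor that AKT keeps out of the nucleus, read 213.9 with doxycycline, 246.9 with mutant p300 and 234 with wild-type p300 at 24 h, against 182.7, 183 and 168.8 at 0 h. All arrays at 24 h were above all at 0 h. The mean log2 change of 0.38 ± 0.13 (SD, n = 3), a 1.30-fold difference, missed the threshold (limma adjusted p = 0.0734). Its 95% interval ran from 1.07-fold to 1.58-fold higher.

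The AKT genes moved least. Akt1, the broadly expressed AKT kinase, read 648.8 with doxycycline, 750 with mutant p300 and 633 with wild-type p300 at 24 h, against 766.3, 757 and 695.9 at 0 h. The 0 h arrays were the higher in 3 of 3 treatments, yet the groups overlapped, and the mean log2 change was -0.13 ± 0.11 (SD, n = 3; limma adjusted p = 0.382). Akt2, the form tied to insulin signalling in muscle and fat, read 341.1, 416 and 330.7 at 24 h and 337.8, 346.1 and 324.8 at 0 h, with treatments in the same order. Only the mutant array at 24 h stood off from the other 5, and the mean log2 change was 0.10 ± 0.14 (SD, n = 3; adjusted p = 0.563). The 95% intervals of the change bounded both genes within 0.79-fold to 1.06-fold for Akt1 and 0.91-fold to 1.27-fold for Akt2. Under spike-in scaling the Akt2 change turned to -0.020.

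Irs1, the adaptor between the receptors of insulin and insulin-like growth factors and PI3K, was dim. It read 43.8 with doxycycline, 26.6 with mutant p300 and 52.4 with wild-type p300 at 24 h, and 3.3, 24.2 and 14.9 at 0 h. The 24 h arrays all lay above the 0 h arrays, and the doxycycline and wild-type arrays at 0 h were under the floor. Signal at 24 h was 2.67-fold the floor with doxycycline and 3.20-fold the floor with wild-type p300. With mutant p300 it was 1.10-fold its 0 h reading. The floor is a percentile of all signals and not a limit of detection, so these ratios do not bound the change in RNA. Its mean signal of 27.5 was under the filter, so it was not tested.

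**Figure D2:**
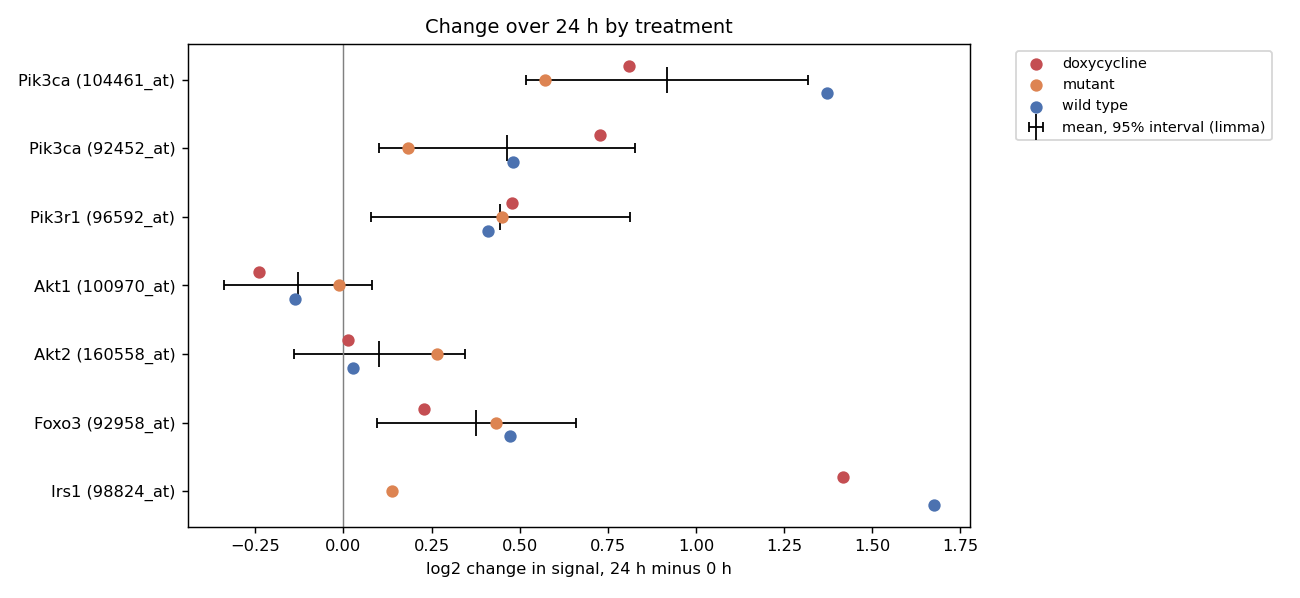
Log2 change in signal, 24 h minus 0 h, of each probe set, with 1 point for each treatment and the limma mean with its 95% interval where tested. The Pik3ca probe set 104461_at has the largest mean among those tested, 0.92, and the 3 points of Pik3r1 lie between 0.41 and 0.48. The Irs1 points with doxycycline and wild-type p300 are drawn with the 0 h signal set to the floor.

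The same samples were then compared by outcome, asking whether RNA of the pathway went with death or survival. At 24 h, 0 of 6 tested member probe sets were called between the doxycycline and mutant arrays and the wild-type array, against 0.773% of all tested probe sets by limma (0.0483% higher and 0.724% lower). At an unadjusted p under 0.05 the count was 0 of 6, against 11.5% of all tested. This test takes the spread of the lone wild-type array from the other treatments. Over both times together, limma called 0 of 6 as well, against 0.531% of all tested. At an unadjusted p under 0.05 it was 0 of 6, against 13.7%. That fit takes the 0 h and 24 h arrays of a treatment as independent. So does the fit that gave both the outcome at 24 h and the difference between the times. The difference between the times was called for 0 of 6, against 0% of all tested, and at an unadjusted p under 0.05 for 0 of 6, against 3.17%. The log2 differences at 24 h ran from -0.42 for Pik3ca (104461_at) to 0.26 for the other Pik3ca probe set and for Pik3r1, with limma adjusted p of 0.574 to 0.985.

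Pik3ca on probe set 104461_at was lower in both dying treatments than in wild type at 24 h, by 0.39 with doxycycline and 0.44 with mutant p300 on the log2 scale (values -0.39 and -0.44). At 0 h it was higher in both, by 0.17 with doxycycline and 0.36 with mutant p300. Such a crossing was found in 5.7% of all tested probe sets. The difference at 24 h had a 95% interval of 0.52-fold to 1.09-fold, and the difference between the times was -0.68 ± 0.33 (estimate ± SE; unadjusted p = 0.0736 and adjusted p = 1 by limma). Probe set 92452_at of the same gene did not show it: doxycycline was 0.51 and mutant p300 0.015 above wild type at 24 h, and 0.26 and 0.31 above at 0 h.

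Pik3r1 was above wild type by 0.42 with doxycycline and 0.099 with mutant p300 at 24 h, and by 0.36 and 0.060 at 0 h. The gap between doxycycline and mutant p300 was 0.32 at 24 h and 0.30 at 0 h, in cells with the same submitted outcome. Akt1 was higher by 0.036 with doxycycline and 0.24 with mutant p300 at 24 h, and Akt2 by 0.045 and 0.33. The 95% interval of the mean difference at 24 h was 0.84-fold to 1.45-fold for Akt1 and 0.83-fold to 1.56-fold for Akt2. For Foxo3 the values were -0.13 with doxycycline and 0.077 with mutant p300, with an interval of 0.70-fold to 1.39-fold.

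Scaling to the spike-in controls put the median of all tested probe sets at -0.32 in this comparison at 24 h, where it was 0.045 as deposited, and the differences of Pik3r1, Akt1, Akt2 and Pik3ca (92452_at) then turned negative while 0 of 6 stayed the count of calls. The mean log2 signal of those 9 controls, relative to the 6 arrays, was 0.13 with doxycycline, 0.23 with mutant p300 and -0.18 with wild-type p300 at 24 h. For the actin control probe sets, the signal at the 3′ end over that at the 5′ end was 1.45 with doxycycline, 1.49 with mutant p300 and 1.33 with wild-type p300 at 24 h. At 0 h it was 1.303, 1.335 and 1.325 in the same order. The same ratio for the Gapdh control was 0.859, 0.905 and 0.875 at 24 h, with doxycycline below wild type. The summed signal of 4 endothelial markers was 74.1 to 113.7 in the dying treatments and 227.6 with wild-type p300 at 24 h. None of the 4 passed the filter, and 1 of them, Tek, read 4 with doxycycline, 2.8 with mutant p300 and 116.3 with wild-type p300, while Kdr was lowest with wild-type p300 at 24.8, against 39.9 and 25.6. The part of these in the differences was not tested.

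**Figure D3:**
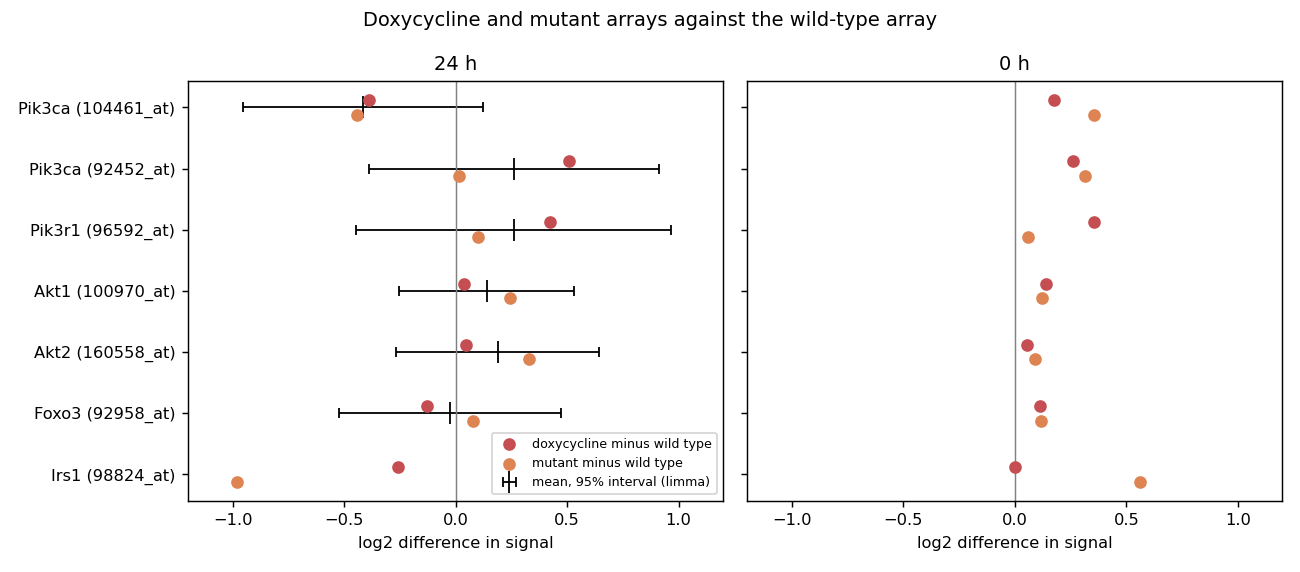
Log2 difference in signal of the doxycycline array and of the mutant array from the wild-type array, at 24 h (left, with the limma mean and its 95% interval) and at 0 h (right). Each interval at 24 h includes 0; Pik3ca (104461_at) lies at -0.39 and -0.44 at 24 h and at 0.17 and 0.36 at 0 h, and Irs1 is drawn with values under the floor of 16.4 set to it.

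Among tested genes, those with the pattern over the 6 arrays most like Pik3ca (104461_at, the tested member with the widest spread) were Timp2, Marcksl1, Pik3r2, Dhrs7b and Ndfip2. Pearson's r with Pik3ca was 0.99 for Timp2 and 0.98 for each of the other 4, over 6 arrays that fall into 2 times, a split which all genes changing with time share. In all, 21 probe sets had r over 0.95. Pik3r2, which encodes the p85 beta regulatory subunit, read 217.4 with doxycycline, 232.7 with mutant p300 and 266 with wild-type p300 at 24 h, and 180.2, 178.2 and 167.1 at 0 h. Like Pik3ca it was highest with wild-type p300 at 24 h and lowest with it at 0 h. Pik3r2 was picked for its likeness to Pik3ca over these same arrays, so the choice favoured a shared order. Timp2, Marcksl1 and Ndfip2 had that order too, while Dhrs7b was lowest with doxycycline at 0 h. The change of Pik3r2 was 0.44 ± 0.21 (SD, n = 3) and was not called (limma adjusted p = 0.0541).

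Other genes of the pathway were grouped by role in 5 lists, and each gene stood under the probe set with the highest mean signal. The lists were chosen with earlier results of these data known. The shares of all tested given beside them count every tested probe set of a gene. Without the filter on dim probe sets, all calls with time in these lists were lost. Of 15 tested genes of the kinase arm (further PI3K subunits, PDK1, mTOR and its partners, adaptors), 0 rose and 0 fell with time by limma, against 7.24% of all tested probe sets that rose and 9% that fell. Their median change was 0.10. With scaling to the spike-in controls the median was -0.020 and 1 fell, with quantile normalization 1 rose, and without the wild-type arrays 1 fell. Of 11 genes that brake the pathway, 1 rose and 0 fell (median 0.031), a share near the 7.24% of all tested that rose. It was Ptpn1, the phosphatase that acts on the insulin receptor and IRS1, with 844, 1311.3 and 922.6 at 24 h against 528.5, 782.4 and 807.2 at 0 h for doxycycline, mutant and wild-type p300. Its change was 0.54 ± 0.30 (SD, n = 3; adjusted p = 0.0194), which was lost with spike-in scaling (0.201), without the variance trend (0.0684), without the block (0.152), without the doxycycline arrays (0.111) and without the mutant arrays (0.147).

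Upstream, 4 of 10 tested growth factor ligands and receptors rose with time and 0 fell (median 0.25), against 7.24% of all tested probe sets that rose. Under spike-in scaling it was 2 of 10, and without the filter on dim probe sets 0 of 10. Igf2, the growth factor that differentiating myoblasts make, read 543.8 with doxycycline, 531.9 with mutant p300 and 369.6 with wild-type p300 at 24 h, against 224.9, 223.5 and 117.2 at 0 h. All 24 h arrays were above all 0 h arrays, and the wild-type array was the lowest at each time. The change was 1.39 ± 0.23 (SD, n = 3; limma adjusted p = 0.000215), and the other probe set of the gene lay under the floor on all arrays. Igf1r, the receptor through which it signals to IRS1, changed by 0.69 ± 0.08 (adjusted p = 0.00205), Egfr by 0.82 ± 0.11 (0.00608) and Igf2r, which clears Igf2, by 0.37 ± 0.15 (0.0428). The Igf2r call was lost with spike-in scaling (0.583), without the variance trend (0.101), without the block (0.136) and without the arrays of any 1 treatment (0.0564 to 0.183), and that of Igf1r with spike-in scaling (0.0693). One further tested probe set of Egfr changed by 0.0047 ± 0.79 and was not called (adjusted p = 0.994).

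Downstream, 7 of 19 tested genes of the FOXO family and of known FOXO targets rose with time and 0 fell (median 0.28), against 7.24% of all tested. The count was 3 of 19 with scaling to the spike-in controls, and 5 to 8 when the arrays of 1 treatment were left out. Bcl6, a transcriptional repressor, had the largest change, with 212.3, 322 and 357.1 at 24 h against 112.3, 73.6 and 153.4 at 0 h for doxycycline, mutant and wild-type p300 (1.42 ± 0.63, SD, n = 3; limma adjusted p = 0.0035). Gadd45a, a growth arrest and DNA damage gene, read 1887, 2021.3 and 1921.8 against 855.2, 702.5 and 970.1 in the same order, a change of 1.22 ± 0.28 (adjusted p = 0.000319). Neither gene had overlapping times.

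Bcl2l11, which encodes the death-promoting protein Bim and is a textbook FOXO3 target, read 613.8 with doxycycline, 781 with mutant p300 and 810.2 with wild-type p300 at 24 h, and 328.5, 377.7 and 381.6 at 0 h. It changed by 1.01 ± 0.10 (SD, n = 3; limma adjusted p = 0.000294), in surviving as in dying treatments, with the doxycycline array the lowest at each time. Another tested probe set of it read 79.5 to 116.1 on all arrays and was not called (adjusted p = 0.936). Sesn1, a sestrin that restrains mTOR signalling, changed by 0.69 ± 0.10 (adjusted p = 0.00221). Ccng2, an unusual cyclin tied to cell cycle arrest, changed by 0.48 ± 0.13 (0.0119). The autophagy genes Gabarapl1 and Map1lc3b changed by 0.53 ± 0.08 (0.00488) and 0.36 ± 0.17 (0.037), and the other Map1lc3b probe set by 0.23 ± 0.04 (0.104, not called). The calls of Sesn1 (0.0679), Ccng2 (0.327), Gabarapl1 (0.201) and Map1lc3b (0.535) were lost with spike-in scaling. Those of Ccng2 and Map1lc3b were also lost without the block (0.0533 and 0.176), without the doxycycline arrays (0.0812 and 0.145) and without the mutant arrays (0.0653 and 0.214), and that of Map1lc3b without the variance trend (0.106).

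Of 11 tested substrates of AKT and GSK3, 1 rose and 2 fell with time (median 0.038), against 16.2% of all tested that were called either way. Cdkn1a, the inhibitor p21, rose by 0.65 ± 0.24 on one probe set and 0.71 ± 0.32 on the other (SD, n = 3; limma adjusted p = 0.00539 and 0.00681). Ezh2, a histone methyltransferase of cycling cells that AKT phosphorylates, read 124.9, 112.4 and 109.1 at 24 h against 240.9, 271.7 and 187.5 at 0 h for doxycycline, mutant and wild-type p300, a change of -1.001 ± 0.25 (adjusted p = 0.00303). Ccnd1, cyclin D1, whose protein GSK3 marks for degradation, changed by -0.68 ± 0.41 (adjusted p = 0.018), and its other probe set by -0.56 ± 0.27 (0.0418). The call of Ccnd1 was lost without the variance trend (0.0595), without the block (0.223), without the doxycycline arrays (0.0713) and without the mutant arrays (0.124). That of Cdkn1a on the first probe set was lost with spike-in scaling (0.0831) and without the mutant arrays (0.058). As relatives of the members with no probe set, and named after their values were seen, Gsk3a read 2116 to 2277 at 24 h and 2015 to 2157 at 0 h, and Foxo4 446.7 to 450.1 and 400 to 472.5, neither called.

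**Figure D4:**
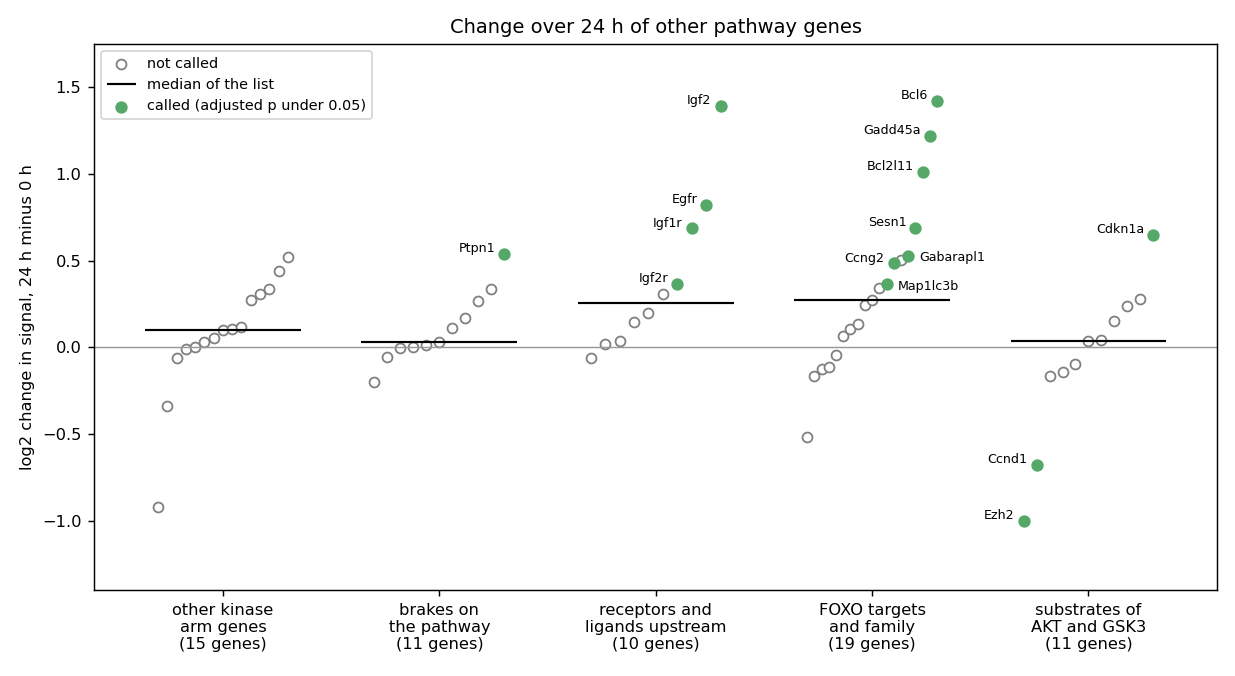
Log2 change in signal, 24 h minus 0 h, of 66 tested genes in 5 lists, 1 point for each gene; filled points were called by limma at an adjusted p under 0.05 and lines are list medians. The called points lie above 0 in the lists of receptors and ligands (4 of 10) and of FOXO targets (7 of 19), and 2 of the 3 in the list of substrates lie below it.

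By outcome at 24 h, 2 of these 66 genes were called, both lower in the dying treatments, against 0.724% of all tested probe sets called lower. Sgk1, a kinase related to AKT that PDK1 also activates and that phosphorylates FOXO3, read 143.6 with doxycycline, 249.1 with mutant p300 and 757.7 with wild-type p300. At 0 h it read 449.7, 588.5 and 696.8. It was lowest with doxycycline and highest with wild-type p300 at each time, and the gap was wider at 24 h. The log2 difference of the dying treatments at 24 h was -2.002 ± 0.31 (estimate ± SE), or 0.25-fold (limma adjusted p = 0.028). The call was lost without the filter (adjusted p = 0.412), with quantile normalization (0.0535) and without the variance trend (0.131). Its difference between the times, -1.56, had adjusted p = 1.

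Pdk4, a kinase that restrains pyruvate dehydrogenase and a known FOXO target in muscle, read 188.3 with doxycycline, 197.6 with mutant p300 and 528.2 with wild-type p300 at 24 h, and 305.7, 224.2 and 364.5 at 0 h. Between 0 h and 24 h it was lower at 24 h in both dying treatments and higher at 24 h in wild type. The difference at 24 h was -1.45 ± 0.23 (estimate ± SE), or 0.37-fold (limma adjusted p = 0.0305), and the call was lost without the filter (0.292) and without the variance trend (0.107). The test of the difference between the times gave -0.98 (adjusted p = 1). Ccnd1 read 280.3 with doxycycline, 207 with mutant p300 and 531.8 with wild-type p300 at 24 h, a difference of -1.14 that missed the threshold (adjusted p = 0.063).

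**Figure D5:**
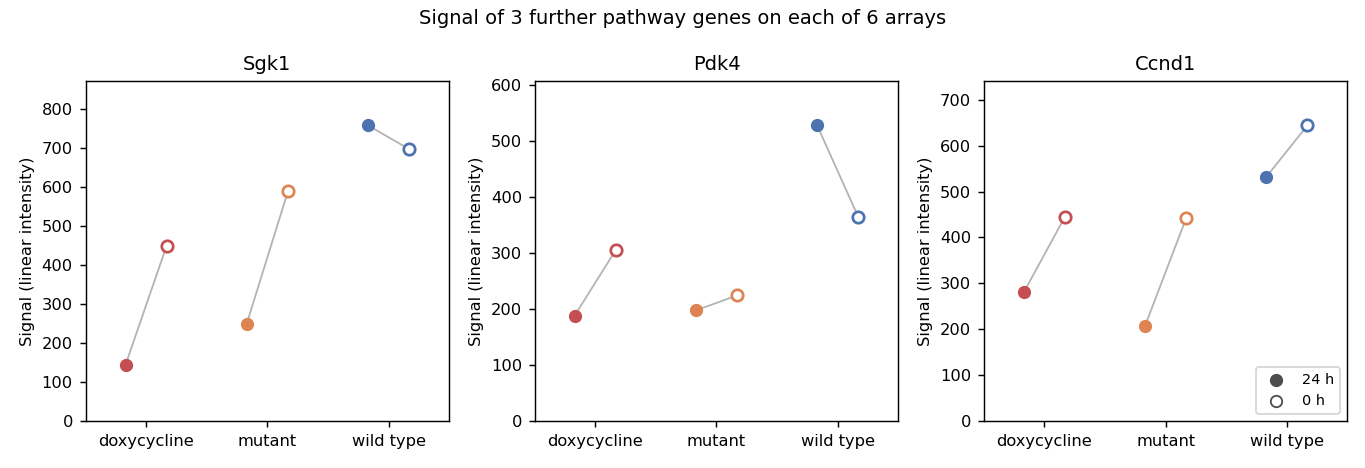
Signal (linear intensity) of Sgk1, Pdk4 and Ccnd1 on each array, with filled points for 24 h and open points for 0 h. At 24 h the wild-type array is the highest for each gene, at 757.7 for Sgk1, 528.2 for Pdk4 and 531.8 for Ccnd1, and Pdk4 is higher at 24 h than at 0 h with wild-type p300 and lower at 24 h with doxycycline and mutant p300.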

How the data were processed

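The submitters hybridised biotin-labelled total RNA of 6 samples to oligonucleotide arrays. The deposited values are linear intensity signals, 1 for each of 12488 probe sets, made with MAS5 per the submitters' processing notes. The sources used here give neither its version nor its settings, and no detection calls were used.

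The 66 control probe sets were left out. Symbols came from the platform annotation, updated by gene ID with RefSeq names (GRCm38.p6); 1 symbol was found for 10833 probe sets, several for 396 and none for 1193. Tested were those whose mean signal reached the median of 75.2. Signals under the 25th percentile (16.4) were raised to it before the log2 step. Models were fitted over 6212 probe sets with limma 3.58.1 in R 4.3.3 (lmFit, eBayes with a variance trend, 2-sided, Benjamini-Hochberg, called at an adjusted p under 0.05), with 4 comparisons: time with treatment as a block (2 residual degrees of freedom), outcome at 24 h and its difference from 0 h from 1 mean for each outcome and time (2), and outcome with time as a term over both times (3). Precision is limited by how few arrays there are.

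The members and lists were chosen with earlier results of these data known. Named beside the members were list genes called in any comparison. The models were tested on simulated data with 200 changed probe sets for each comparison. For a change of 1 on the log2 scale, 72% were recovered for time, 32% for outcome at 24 h, 67% for outcome over both times and 3% for the difference between times. The simulated spread was that left by the time model with treatment as a block, which takes out spread between treatments. The outcome comparisons and the difference between times have that spread in their error. Their recoveries may therefore be too high for these data. Alternatives were no filter, a floor at the 10th percentile, quantile normalization, scaling to 9 spike-in controls, no variance trend, no block, and leaving out arrays.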

Additional observations from a re-analysis of the deposited data

Results flagged for a closer look

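Pik3ca on probe set 104461_at was lower in the doxycycline and mutant arrays than in the wild-type array at 24 h (mean log2 difference -0.42) and higher in both at 0 h (0.27). The difference between the times was -0.68, every array of the dying treatments lay on one side of wild type at 24 h and on the opposite side at 0 h, and limma's test of this difference gave an unadjusted p = 0.0736 and an adjusted p = 1. The other Pik3ca probe set did not cross, at 0.26 at 24 h.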

How the results depend on the processing

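The rise of Pik3ca (104461_at) with time kept its call with the lower floor, both other scalings, no variance trend, no block and without the arrays of any 1 treatment, at 0.69 to 1.09 on the log2 scale, and lost it without the filter. Without the filter 12422 probe sets were tested, and the time comparison had 0 calls by limma, with 2030 at an unadjusted p under 0.05. Of all tested probe sets, the time comparison called 1009 as reported, 619 with spike-in scaling, 514 without the block, 539 without the doxycycline arrays, 470 without the mutant arrays and 1275 without the wild-type arrays. The outcome at 24 h called 48 as reported, 192 without the filter, 426 with spike-in scaling, 11 without the trend, and, leaving out an array, 161 (doxycycline, 0 h), 163 (mutant, 0 h), 200 (doxycycline, 24 h) and 351 (mutant, 24 h). Leaving out a wild-type array gave no value there. Outcome over both times called 33 as reported, 10 without the filter, 237 with spike-in scaling, 1 without the trend, and, leaving out an array, 0 (wild type, 24 h), 15 (doxycycline at 0 h, or mutant at 24 h) and 50 (doxycycline, 24 h). The difference between the times called 0 as reported (197 at an unadjusted p under 0.05), 245 without the filter, 1 with spike-in scaling and 6 to 43 without an array (43 when it was mutant p300 at 24 h). In the outcome comparisons and the difference between the times, 0 members were called under any of these settings.

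Uncalled member values that changed sign did so mostly with spike-in scaling. Akt2 then changed by -0.020 with time. At 24 h the outcome difference became -0.10 for Pik3ca (92452_at), -0.10 for Pik3r1, -0.22 for Akt1 and -0.18 for Akt2, over both times -0.024 for Akt1, -0.028 for Akt2 and -0.11 for Foxo3, and the difference between the times -0.36 for Pik3r1, -0.40 for Akt1 and -0.30 for Akt2. When 1 array was left out, the outcome difference of Foxo3 ranged from -0.13 to 0.077 at 24 h and from -0.026 to 0.12 over both times, and that of Pik3ca (104461_at) over both times from -0.42 to 0.27. The difference between the times ranged from -0.11 to 0.21 for Pik3r1, -0.27 to 0.22 for Pik3ca (92452_at), -0.095 to 0.11 for Akt1 and -0.029 to 0.26 for Akt2. The cause was not tested. The time comparison pairs 24 h with 0 h within each of 3 treatments through the treatment block, and the 514 calls without the block are its unpaired form.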

Other observations

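Irs2, a relative of Irs1, lay under the filter. It read 12.8 with doxycycline, 41.5 with mutant p300 and 12 with wild-type p300 at 24 h, against 19.7, 16.8 and 18.2 at 0 h, so that the mutant array at 24 h was the highest of the 6. It was named after its values were seen, and it was not tested.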
